A study of Cricetulus griseus with 3 samples.

Results

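The genes described here encode the cytosolic factors that start, extend and end protein synthesis: the eIF1 to eIF6 families of initiation factors, the cap-binding inhibitor EIF4EBP1, the poly-A binding protein PABPC1, the eEF1 and eEF2 elongation factors and the release factor ETF1. They were measured in CHO cells, a Chinese hamster ovary line, as poly-A RNA recovered with microtubule preparations. Membership was set by the human protein matched and not by a difference between stages, though earlier results of these data were known. A transcript belonged when its best human protein match was one of 44 UniProt entries, and where rows shared an entry the row with most reads was kept. This gave 43 members among 21607 transcripts. GSPT1, the partner of ETF1 in termination, was not analysed here. Hamster transcripts are called by the symbol of the human protein they match, with its UniProt entry for the genes the results turn on.

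Cap-dependent initiation begins when EIF4E binds the cap of an mRNA and, through the scaffold eIF4G, recruits the helicase eIF4A, while EIF4EBP1 competes with the scaffold for EIF4E. The small ribosomal subunit arrives with eIF3 and with eIF2, the GTPase that carries the initiator tRNA and is recharged by eIF2B. Many elongation factor mRNAs, with PABPC1 and some eIF3 subunits, start with a pyrimidine tract (TOP mRNAs in human and mouse) through which mTOR signalling controls their translation.

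The question set by the study's title is whether the midbody is a site of translation, and the values below are the RNA levels of the machinery itself. Interphase microtubules came from cells kept for 16 h in thymidine at 2 mM, which stops DNA synthesis. For the mitotic microtubules the same block was followed by 5 h of release, 4 to 5 h in nocodazole at 0.1 ug/ml, shake-off and 15 min of fresh medium. Midbodies, the dense structures within the bridge that joins daughter cells before they separate, were prepared in the same way but with 65 min of fresh medium. Thymidine was thus shared by all groups, and nocodazole, shake-off and fresh medium by the mitotic and midbody groups alone. CHO is an established line, and nothing in the labels ties the groups to separate cultures. With 1 library in each group, differences between groups have no replicate check and no p-value, and preparation cannot be told apart from stage or structure. Whole-cell RNA was not analysed here. In these pooled preparations, fewer cells contributing a transcript and less of it per cell cannot be told apart.

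The libraries held 12672056 assigned reads for interphase, 8059745 for mitosis and 5134865 for midbodies. VIM, the filament gene of fibroblast-like cells, stood at 168 to 239 RPKM, while the epithelial genes EPCAM and CDH1 stayed under 1 RPKM and the leukocyte gene PTPRC was at 0 in every library. The midbody motor gene KIF23 reached 274 RPKM in midbodies, its highest of the 3 libraries. TOP2A, a gene of dividing cells, was at 121 RPKM in interphase, 195 in mitotic microtubules and 238 in midbodies, and the midbody gene PRC1 at 63.1, 67.4 and 92.4 RPKM. The mitotic cyclin gene CCNB1 did not follow the stage labels, at 108 RPKM in interphase, 62.8 in mitotic microtubules and 68.3 in midbodies.

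Translation factor transcripts were abundant in every library. Together they held 1.30% of assigned reads in interphase microtubules (exact 95% binomial interval 1.295% to 1.31%), 1.17% in mitotic microtubules (1.17% to 1.18%) and 1.27% in midbodies (1.26% to 1.28%). These intervals, like all below, cover counting error only, and PCR copies of a molecule were not separated. The mitotic share was the lowest, and the midbody share lay between the other two. Without EEF1A1, which decided whether interphase or midbodies came first, the shares were 1.18% in interphase, 1.11% in mitosis and 1.21% in midbodies. All 43 members were at 25.3 RPKM or more in all 3 libraries, where RPKM is the read count per kilobase, relative to the total of the library. The median member was at 130 RPKM in interphase, 98.7 in mitosis and 99.6 in midbodies. The median over transcripts at 1 RPKM or more was 27.0, 21.0 and 20.5 RPKM in the same stage order.

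The most abundant members were EEF1A1, PABPC1 and EEF2, which were among the 4 highest in every library. EEF1A1 (P68104), which delivers aminoacyl-tRNA to the ribosome, was first in interphase with 707 RPKM, against 346 in mitosis and 378 in midbodies. PABPC1 (P11940), which coats the poly-A tail, was first in the other libraries, with 277 RPKM in interphase, 397 in mitosis and 399 in midbodies. The row used matched the human protein at a BLASTX E-value of 7e-48. A second PABPC1 row with a closer match, at 0, held 13 reads in mitosis, 7 in midbodies and 0 in interphase. EEF2 (P13639), the translocation factor, was at 327, 336 and 370 RPKM from interphase through mitosis to midbody. EIF5A (P63241), which carries the hypusine residue and helps the ribosome through difficult peptide bonds, was second in interphase at 352 RPKM, with 213 in mitosis and 259 in midbodies. EEF1G, a subunit of the exchange factor for EEF1A1, varied least of these 5 genes, at 227, 250 and 253 RPKM in that order. The lowest rows used were EIF4A2 in interphase and EIF2S3 in the mitotic and midbody libraries. Some of this order turned when all rows of a protein entry were summed, an alternative chosen for levels after seeing the data. EIF4A2 was then at 70.2 RPKM in interphase and EIF2B2 the lowest at 39.6, EEF1A1 and PABPC1 were level in midbodies at 400 and 399 RPKM, and EIF3C joined the leading genes with 299 RPKM in interphase, 335 in mitosis and 386 in midbodies.

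**Figure D1:**
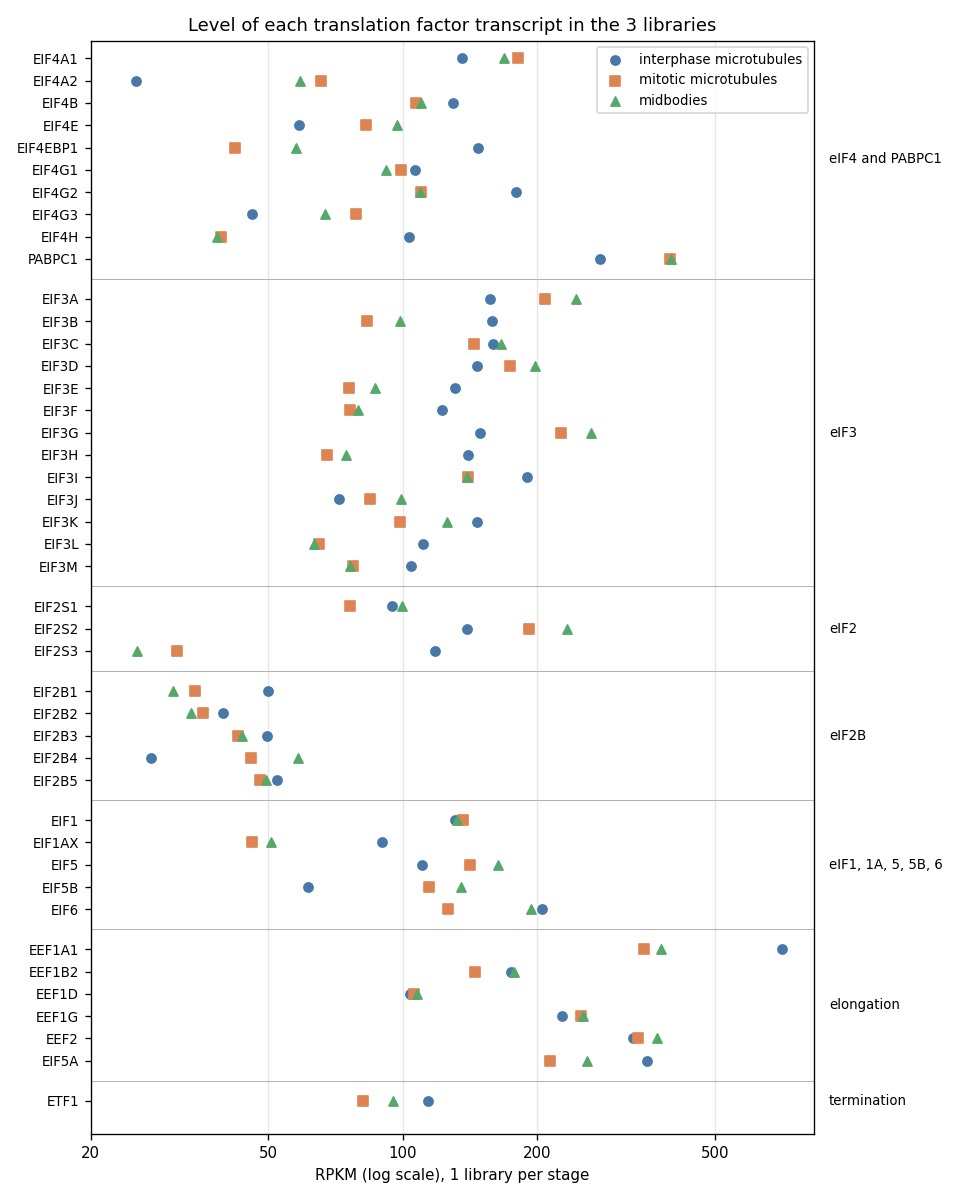
Each row is 1 translation factor transcript, grouped by role, and each point its RPKM (log axis) in 1 library: interphase (circle), mitotic (square) and midbody (triangle). Squares and triangles mostly lie close together, while circles stand apart in both directions, as for EIF2S3 at 118 RPKM in interphase against 31.3 in mitosis and 25.4 in midbodies.

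Translation factor RNAs stood at similar levels in midbodies and mitotic microtubules. On the log2(RPKM + 1) scale, which hardly compresses ratios at these levels, all 43 midbody to mitotic ratios lay between -0.29 and 0.61, with a median of 0.14. The median over all 13131 transcripts compared was -0.03, and over those at 10 RPKM or more it was -0.01. Of the members, 30 were higher and 13 lower in midbodies, where 46.7% of all transcripts were higher. The counting interval of the read ratio lay above 1 for 22 members and below 1 for 5. The matching share of all transcripts was not computed, and such intervals narrow as reads rise. A single member was 1.5-fold or more higher, against 7.11% of all transcripts, and 0 members were 1.5-fold or more lower, against 8.56%. At 2-fold there were 0 members in either direction, against 2.09% higher and 1.8% lower of all transcripts. Restricting the background to transcripts at 10 RPKM or more, a level every member exceeds, gave 6.13% higher and 5.99% lower by 1.5-fold, and 1.85% higher and 0.861% lower by 2-fold.

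EIF6 (P56537) was the member past 1.5-fold. It keeps the large ribosomal subunit from joining the small one too early, and its RNA was at 194 RPKM in midbodies and 127 in mitotic microtubules. The plain ratio of reads was 1.53 (interval 1.41 to 1.67). In interphase EIF6 was at 205 RPKM, so that midbodies stood close to interphase and mitotic microtubules stood low. EIF4EBP1 (Q13541) came next at 57.7 RPKM in midbodies and 42.2 in mitotic microtubules, a ratio of 1.37 (1.18 to 1.58). EIF2S1 (P05198), the eIF2 subunit that stress kinases phosphorylate, had 99.6 RPKM in midbodies and 76.2 in mitotic microtubules, a ratio of 1.31 (1.20 to 1.42). EIF3K, a small subunit of eIF3, had 125 RPKM in midbodies and 98.7 in mitotic microtubules, a ratio of 1.27 (1.12 to 1.44). EIF2B4 had 58.2 RPKM in midbodies and 45.8 in mitotic microtubules, also a ratio of 1.27 (1.13 to 1.43).

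Members lower in midbodies than in mitotic microtubules differed by little. EIF2S3 (P41091), the subunit of eIF2 that binds GTP and the initiator tRNA, had 25.4 RPKM in midbodies and 31.3 in mitotic microtubules, lower by a factor of 1.23 (1.09 to 1.38). EIF4G3, a paralog of the eIF4G scaffold, was at 67.1 RPKM in midbodies and 78.7 in mitotic microtubules, lower by a factor of 1.17 (1.11 to 1.24). EIF4A2 was lower by 1.11 (1.02 to 1.20), EIF4G1 by 1.08 (1.03 to 1.14) and EIF4A1 by 1.07 (1.01 to 1.14). EIF2B1, a regulatory subunit of eIF2B, was lower by 1.12, with an interval that spans 1 (0.924 to 1.37). Among the cap-complex genes, the intervals of both helicases and of the scaffolds EIF4G1 and EIF4G3 thus lay below 1, that of EIF4G2 spanned it, and that of the cap-binding gene EIF4E (P06730) lay above it, at 1.18 (1.10 to 1.26). These intervals use library totals and were not recomputed under other scalings. That of EIF4A1 ended near 1, at 0.986, and EIF4A2 and EIF4G1 had divided reads.

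By role, the 13 eIF3 subunits had a median midbody to mitotic log2 ratio of 0.20, with 10 above 0 and 8 intervals above 1. The 6 elongation factors had a median of 0.13, with 6 above 0 and 4 intervals above 1. The 10 members of the cap-binding group had a median of -0.01, which was 0.01 under TMM scaling. The 5 eIF2B subunits were at a median of 0.03, which became -0.03 when members with divided reads were left out. ETF1, which recognises stop codons, had 94.9 RPKM in midbodies and 81.5 in mitotic microtubules, a ratio of 1.16 (1.09 to 1.24). All 10 TOP mRNAs were above 0, from PABPC1 and EEF1G at 0.01 to EEF1B2, the exchange subunit, at 0.28, and their median of 0.10 was below the 0.18 of the other 33 members. The counting intervals of 4 of these 10 lay above 1, and the rest spanned it. None of the interval counts by role has a share of all transcripts to set beside it.

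**Figure D2:**
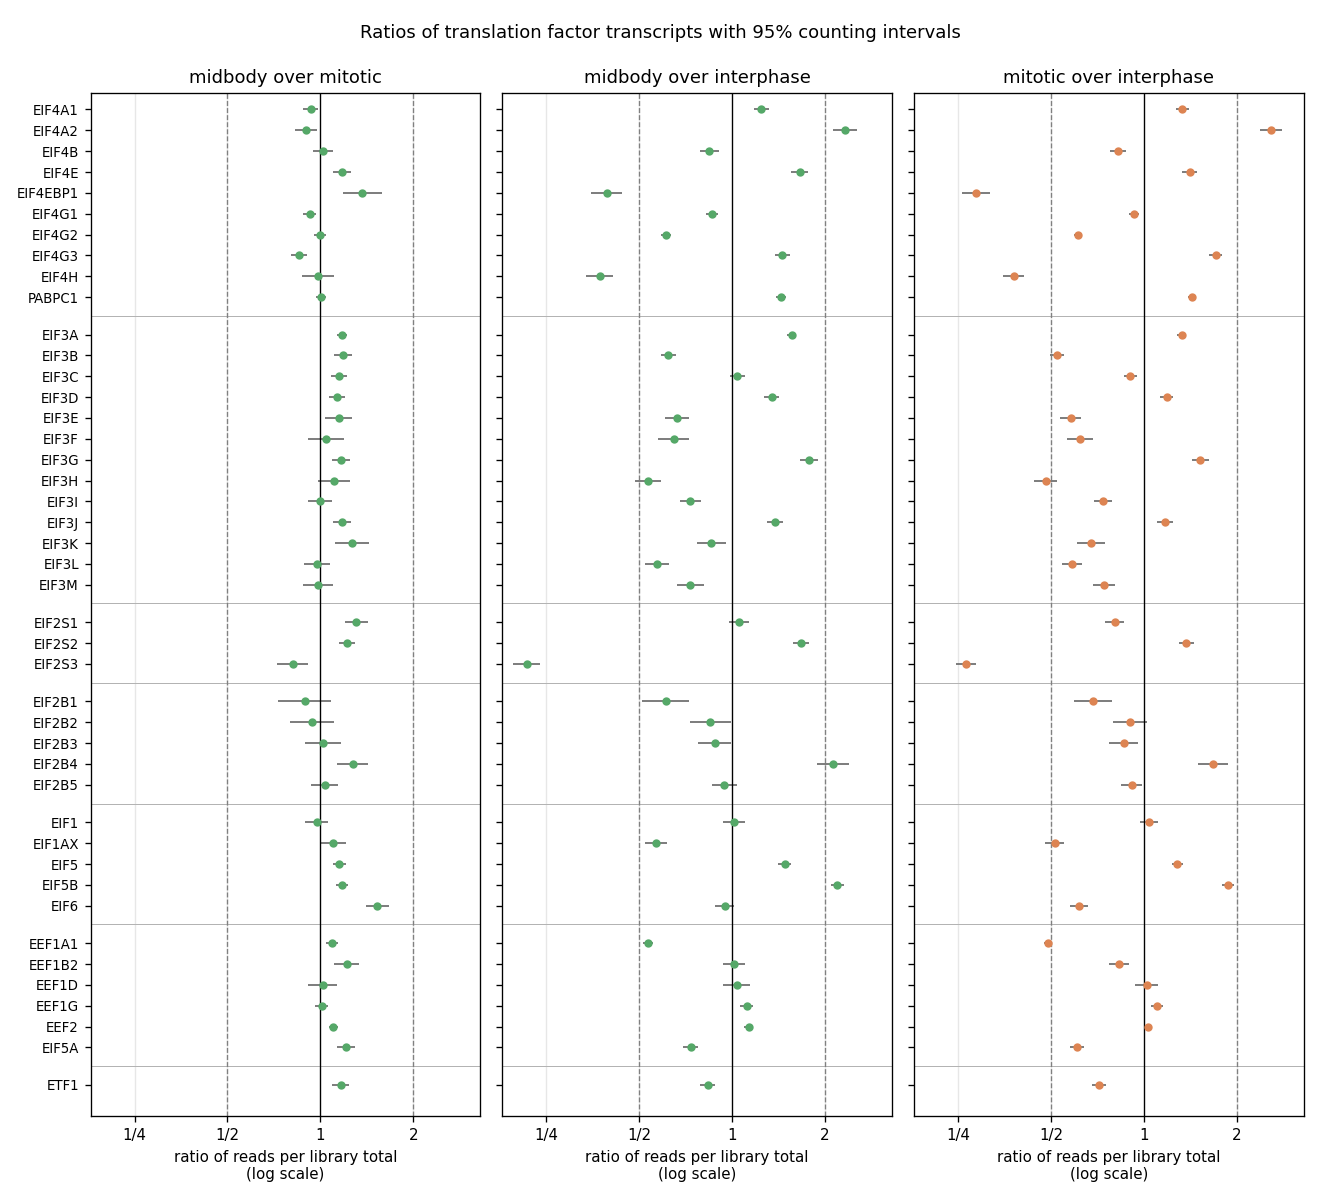
Each point is the ratio of reads per library total for 1 member (log axis), with its exact 95% counting interval, in 3 panels for midbody over mitotic, midbody over interphase and mitotic over interphase; the solid line marks a ratio of 1 and dashed lines 2-fold. Points hug the solid line in the first panel, from 1.23-fold lower for EIF2S3 to 1.53-fold higher for EIF6, and lie past 2-fold on both sides in the other panels.

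Against interphase the same genes spread widely, in both directions. In midbodies, 7 members were 1.5-fold or more higher than in interphase microtubules, against 25.1% of all transcripts, and 11 were lower, against 34.2%. These counts are 16.3% and 25.6% of the 43. At 2-fold, 3 were higher and 3 lower, against 14.7% and 20.8%. With the background at 10 RPKM or more, the shares were 21.8% higher and 36.9% lower by 1.5-fold, and 12.4% higher and 22.8% lower by 2-fold. Of the members 20 were above 0, where 44.5% of all transcripts were. The median log2 ratio of the members was -0.08, beside -0.15 for the 13059 transcripts compared and -0.23 for those at 10 RPKM or more. The members' shares past 1.5-fold and 2-fold were smaller than the background in each direction and at both floors, while the share above 0 was close to it.

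EIF4A2, EIF5B and EIF2B4 were the members past 2-fold on the high side. EIF4A2 (Q14240), a paralog of the main cap-unwinding helicase, had 58.9 RPKM in midbodies and 25.3 in interphase, a ratio of 2.33 (2.13 to 2.54). EIF5B (O60841), the GTPase that joins the ribosomal subunits, had 135 RPKM in midbodies and 61.4 in interphase, a ratio of 2.20 (2.09 to 2.30). EIF2B4 (Q9UI10), the delta subunit of the exchange factor eIF2B, had 58.2 RPKM in midbodies and 27.4 in interphase, a ratio of 2.13 (1.89 to 2.40). All 3 carried reads divided between transcripts. The 3 EIF4A2 rows, summed, gave a log2 ratio of 0.96, just under 2-fold, and EIF2B4 was at 0.96 with a pseudocount of 5.

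Another 4 members were between 1.5-fold and 2-fold higher, none with divided reads. EIF3G (O75821), an RNA-binding subunit of eIF3, had 264 RPKM in midbodies and 149 in interphase, a ratio of 1.77 (1.66 to 1.90). EIF2S2 (P20042), the beta subunit of eIF2, had 234 RPKM in midbodies and 140 in interphase, a ratio of 1.67 (1.58 to 1.78). EIF4E was at a ratio of 1.66 (1.55 to 1.76), and EIF3A, the scaffold subunit of eIF3, had 244 RPKM in midbodies and 156 in interphase. EIF5, which triggers GTP hydrolysis by eIF2 at the start codon, was next below the line, with a log2 ratio of 0.56.

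EIF2S3 was the member furthest from 1 in this comparison. It had 25.4 RPKM in midbodies and 118 in interphase, lower by a factor of 4.64 (4.20 to 5.12). EIF4H (Q15056), which stimulates the eIF4A helicase, had 38.4 RPKM in midbodies and 103 in interphase, lower by a factor of 2.69 (2.44 to 2.97). EIF4EBP1 had 57.7 RPKM in midbodies and 147 in interphase, lower by a factor of 2.55 (2.28 to 2.86). EIF3H (O15372), an MPN-domain subunit of eIF3, had 74.8 RPKM in midbodies and 140 in interphase, a factor of 1.87 below it (1.70 to 2.07), and EEF1A1 also stood 1.87-fold below interphase (1.80 to 1.94). Below 2-fold but past 1.5-fold were, in all, EEF1A1, EIF3H, EIF1AX, EIF3L, EIF4G2, EIF2B1, EIF3B and EIF3F, with log2 ratios from -0.90 to -0.62. EIF3E, at -0.58, was the nearest member outside.

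The mitotic library was set against the same interphase library, so the values that follow share it with those above and are not independent of them. Of the 43 members, 5 were 1.5-fold or more higher in mitosis, against 26.7% of all transcripts, and 13 were lower, against 33.8%. At 2-fold, 1 was higher and 5 were lower, against 16.6% and 20.7%. At 10 RPKM or more the background was 22.7% higher and 36.7% lower by 1.5-fold, and 13.5% higher and 22.9% lower by 2-fold. Members above 0 numbered 17, where 45.3% of all transcripts were, and the median was -0.21, beside -0.13 for all 13176 transcripts. Over transcripts at 10 RPKM or more the median was -0.23, close to that of the members. EIF4A2 had 65.5 RPKM in mitotic and 25.3 in interphase microtubules, a ratio of 2.58 (2.39 to 2.80), and EIF5B had 115 RPKM in mitotic and 61.4 in interphase microtubules, a ratio of 1.87 (1.79 to 1.95). EIF4G3 had 78.7 RPKM in mitotic and 46.1 in interphase microtubules, a ratio of 1.71 (1.63 to 1.79), ahead of EIF2B4 at 1.67 and EIF3G at 1.52 (1.43 to 1.62). EIF2S3 was lower by a factor of 3.77 (3.51 to 4.06), EIF4EBP1 by 3.49 (3.14 to 3.89), EIF4H by 2.64 (2.44 to 2.87), EIF3H by 2.08 (1.91 to 2.26) and EEF1A1 by 2.04 (1.98 to 2.11). Under median of ratios scaling EIF3H and EEF1A1 moved inside the 2-fold line, leaving 3, and under TMM scaling EEF1A1 alone did, leaving 4.

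**Figure D3:**
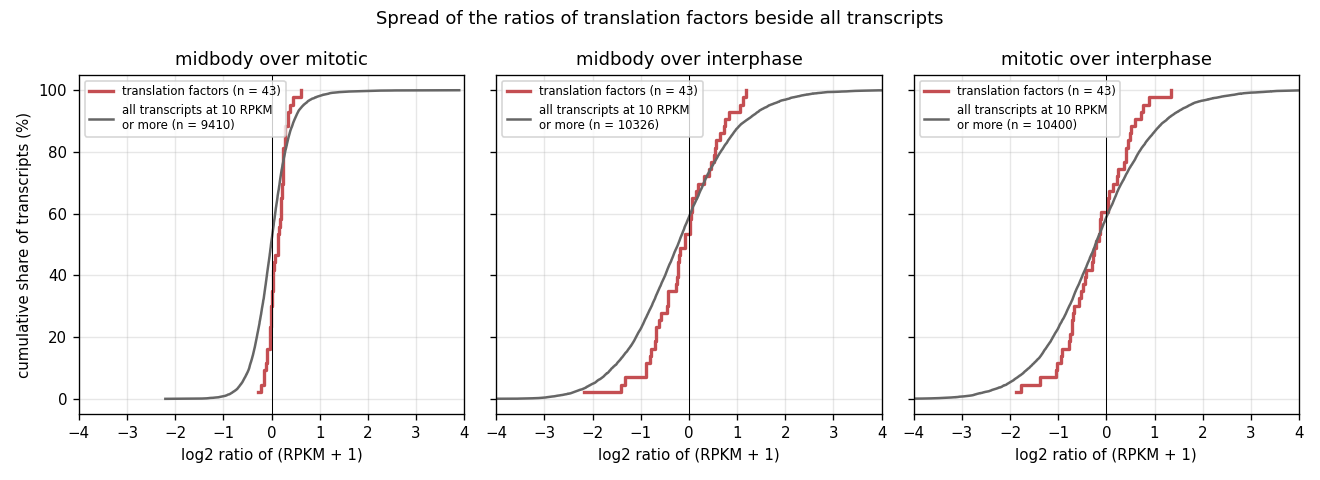
Cumulative share of transcripts (%) against the log2 ratio of (RPKM + 1) for the 43 translation factors (red) and for all transcripts at 10 RPKM or more in either library (grey), in 3 panels. In the midbody over mitotic panel the red line stays within -0.29 and 0.61; over interphase the red line is wider, from -2.17 to 1.19 for midbodies, and ends inside the grey line on both sides.

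Of eIF2, eIF2B and eIF3, eIF2 had the most uneven subunit levels in the mitotic and midbody libraries, also with rows summed. The complex holds its 3 subunits in equal number, and in interphase their RNAs were within 1.48-fold of each other, at 94.6 RPKM for EIF2S1, 140 for EIF2S2 and 118 for EIF2S3. In mitotic microtubules the 3 genes had 76.2, 192 and 31.3 RPKM, and in midbodies 99.6, 234 and 25.4 RPKM. The gap between EIF2S2 and EIF2S3 was thus 6.12-fold in mitosis and 9.18-fold in midbodies. None of these 3 transcripts had divided reads, and each had a single row.

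In eIF3, the largest initiation factor, the spread of subunit levels was also wider in the mitotic and midbody libraries than in interphase. The 13 subunits spanned 72.0 to 190 RPKM in interphase, 64.8 to 227 in mitosis and 63.3 to 264 in midbodies, and the SD of their log2 RPKM was 0.36, 0.64 and 0.68 in that order. With the RPKM of both EIF3C rows added, the SD was 0.48 in interphase, 0.78 in mitosis and 0.82 in midbodies. EIF3C was then the highest subunit in each library, which it was by neither row alone. Its rows are 2273 and 560 bases long and had undivided reads. If they are parts of 1 mRNA, the sum overstates its level and these SDs, which was not tested. EIF3G was 1.06 times EIF3H in interphase, 3.36 times in mitosis and 3.53 times in midbodies. EIF3A, EIF3D, EIF3G and EIF3J were higher in both mitotic and midbody libraries than in interphase. EIF3B, EIF3E, EIF3F, EIF3H, EIF3I, EIF3K, EIF3L and EIF3M were lower in both, and EIF3C was at 159, 144 and 166 RPKM. EIF3B, which binds the other core subunits, had 159 RPKM in interphase, 83.1 in mitosis and 98.7 in midbodies, and EIF3I, its partner, 190, 140 and 139 RPKM. EIF3D, which can itself bind the cap of some mRNAs in human cells, had 147, 174 and 197 RPKM.

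Of the 8 subunits that form the PCI and MPN octamer of eIF3 in human cells, 2 were above 0 in midbodies over interphase, with a median log2 ratio of -0.51, whereas 3 of the other 5 were above 0, with a median of 0.43. This split was made after the values were seen, and 44.5% of all transcripts were above 0. The other 5 were EIF3G at 0.82, EIF3J at 0.46, EIF3D at 0.43, EIF3I at -0.45 and EIF3B at -0.68. Reads of EIF3J were divided, so the median of these few genes is uncertain. EIF3C had a second row with the same human match, at 220 RPKM in midbodies and 140 in interphase, a log2 ratio of 0.65 beside 0.06 in the row used and 0.37 for their sum.

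The balance of EIF4EBP1 and its target also differed by stage. EIF4E was at 58.7 RPKM in interphase, 82.5 in mitosis and 97.1 in midbodies, and EIF4EBP1 at 147, 42.2 and 57.7 RPKM. Per length, the inhibitor's RNA was 2.51 times that of EIF4E in interphase, 0.511 times in mitosis and 0.594 times in midbodies. The paralogs of the helicase and scaffold were weighted differently as well. EIF4A2 made up 15.8% of the RPKM of the EIF4A pair in interphase, 26.6% in mitosis and 25.9% in midbodies, or 34.1%, 45.2% and 45.0% when all its rows were summed. Among scaffolds, EIF4G2, which lacks the EIF4E binding site, held 54.0% of the EIF4G sum in interphase, 38.1% in mitosis and 40.8% in midbodies. EIF4G3 held 13.9%, 27.4% and 25.0%, and EIF4G1 32.1%, 34.5% and 34.2%. The order turned when the near-equal EIF4G1 rows were summed: EIF4G1 then led in every library with 48.4%, 51.2% and 50.9%, ahead of EIF4G2 with 41.1%, 28.4% and 30.4%, while EIF4G3 held 10.6%, 20.4% and 18.7%. The helicase cofactors parted too, since EIF4B was lower in midbodies than in interphase by a factor of 1.18 (1.11 to 1.27) and EIF4H by 2.69.

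**Figure D4:**
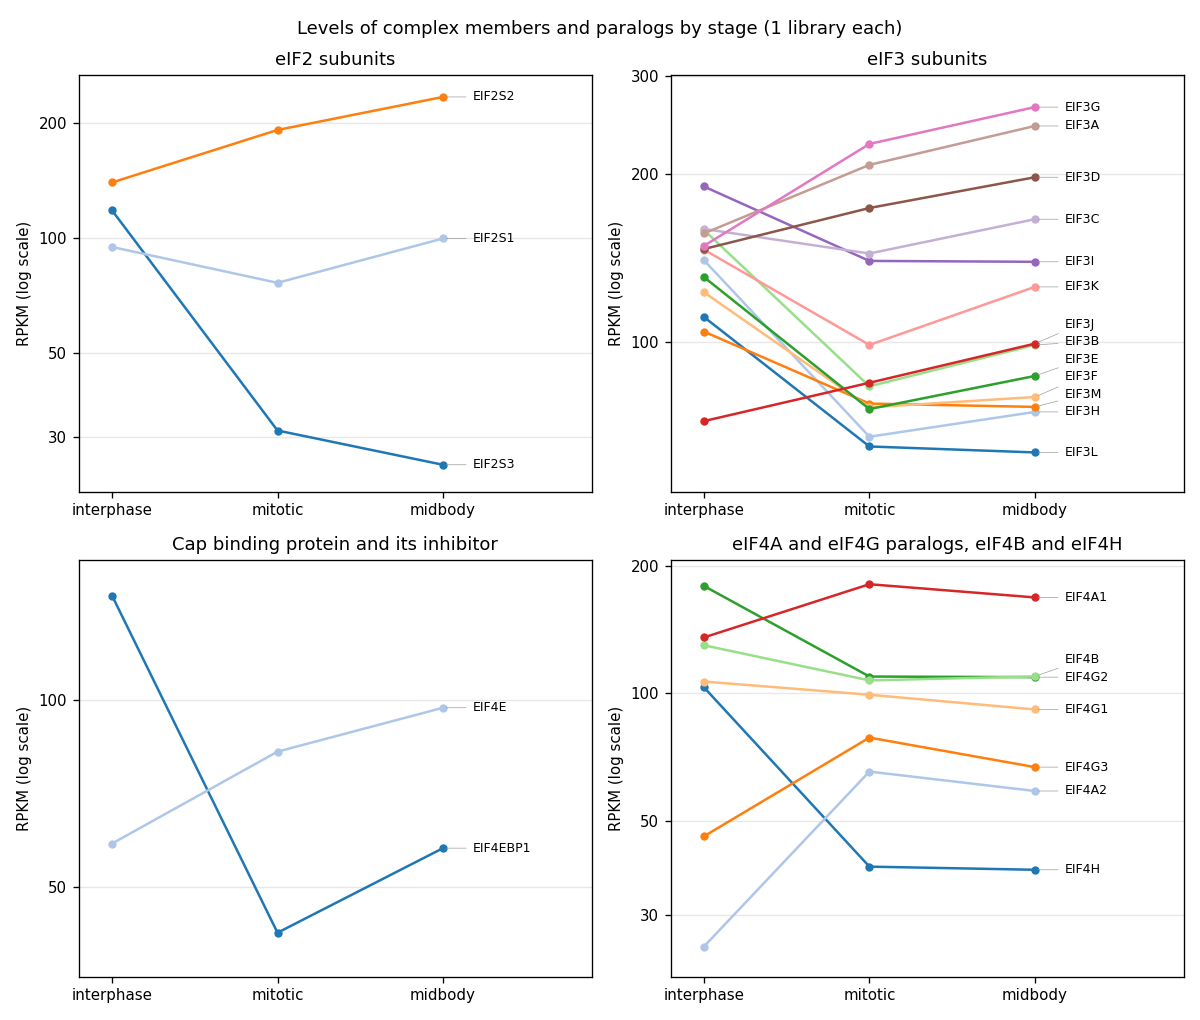
RPKM (log axis) in the interphase, mitotic and midbody libraries for eIF2 subunits, eIF3 subunits, EIF4E with EIF4EBP1, and the eIF4A, eIF4G, eIF4B and eIF4H genes, 1 line per transcript. In the eIF2 and eIF3 panels lines fan out between interphase and mitosis. The EIF4E and EIF4EBP1 lines cross, with EIF4EBP1 at 147 RPKM in interphase and 57.7 in midbodies.

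For eIF2B, EIF2B4 was the odd subunit. EIF2B1, EIF2B2, EIF2B3 and EIF2B5 all had midbody to interphase log2 ratios below 0, from -0.69 for EIF2B1 to -0.08 for the catalytic subunit EIF2B5. EIF2B4 was at 1.06, and the median over all transcripts was -0.15. The read ratio interval of EIF2B5 spanned 1 (0.858 to 1.03), and those of EIF2B2 and EIF2B3 ended near 1, at 0.989 and 0.994. The EIF2B4 row used had 27.4 RPKM in interphase, 45.8 in mitosis and 58.2 in midbodies, and its other row had 24.4, 40.5 and 51.6 RPKM. Summed, they gave 51.8, 86.3 and 110 RPKM, so that EIF2B4 was highest of the 5 in midbodies on either count, but lowest in interphase only by the single row. EIF2B5 had 52.4 RPKM in interphase, 47.8 in mitosis and 49.3 in midbodies, and EIF2B3 49.5, 42.7 and 43.6 RPKM. EIF2B1 had 50.04, 34.3 and 30.6 RPKM in that order, and EIF2B2 39.6, 35.8 and 33.6. EIF1 and EIF1AX, which together hold the ribosome open for scanning, also differed. EIF1 was at 131 RPKM in interphase, 136 in mitosis and 132 in midbodies, and EIF1AX was at 89.6, 46.1 and 50.7 RPKM. EIF1 had 4 rows with divided reads, whose midbody to interphase log2 ratios ran from -0.11 to 0.46. A second EIF1AX row had 61.2 RPKM in midbodies and 61.1 in interphase, so the EIF1AX difference was not shared by its other row, and their sum had a log2 ratio of -0.43, inside the 1.5-fold line.

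Among elongation factors, EEF1A1 and EIF5A stood furthest from 1 against interphase. The RPKM of EEF1A1 was 2.16 times that of EEF2 in interphase, 1.03 times in mitosis and 1.02 times in midbodies. EEF1B2 and EEF1D, partners of EEF1G in the exchange complex, had midbody to interphase intervals of 0.931 to 1.10 and 0.938 to 1.15, which span 1. EIF5A was lower in midbodies than in interphase by a factor of 1.36 (1.29 to 1.44) and in mitosis by 1.65 (1.57 to 1.73). Among the 10 TOP mRNAs, 5 were above 0 in midbodies over interphase, from PABPC1 at 0.52 to EEF1A1 at -0.90, with a median log2 ratio of -0.11. Their direction was thus mixed, with EIF4B, EIF3E, EIF3F, EIF3H and EEF1A1 below 0.

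Transcript length gave a weak relation at most. Across the 43 members, which are not independent replicates and share the same 3 libraries, Spearman's rho of the log2 ratio with transcript length was -0.20 for midbody over mitotic, 0.22 for midbody over interphase and 0.26 for mitotic over interphase. Over all transcripts the values were -0.17, 0.01 and 0.08. With level, taken as the mean RPKM of the libraries compared, rho was 0.31, 0.13 and 0.03 for the members in the same order. Over all transcripts it was 0.17, -0.03 and -0.10.

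Other genes of the pathway, listed by human protein entry, gave a frame for these values. For ribosomal proteins the median midbody to mitotic log2 ratio was 0.21 over 30 genes of the small subunit and 0.16 over 42 of the large one. Past 1.5-fold higher were 2 and 3 of them (6.67% and 7.14%), against 7.11% of all transcripts. In both subunits 0 were lower by as much, against 8.56%. Over interphase, the midbody medians were 0.22 and 0.24, beside -0.08 for the factors. Past 1.5-fold higher were 4 genes of the small and 2 of the large subunit (13.3% and 4.76%), against 25.1% of all transcripts. Genes past 1.5-fold higher over interphase included RPS21 at 0.79 and RPS29 at 0.65 of the small subunit, and RPL30 at 0.95 and RPL10A at 0.80 of the large one. RPL30 rested on 64 midbody and 79 interphase reads, with a ratio interval of 1.41 to 2.82. RPLP0, the stalk protein, was the single one past 1.5-fold lower, at -0.74, where 34.2% of all transcripts were lower by as much. In mitosis over interphase RPLP0 was at -1.41 and RPL29 at -1.10. Reads were divided for 17 genes of the small and 31 of the large subunit, so single ribosomal genes are uncertain.

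The 19 cytosolic aminoacyl-tRNA synthetases measured had a midbody to mitotic median of -0.22. Of these, 0 were 1.5-fold or more higher, against 7.11% of all transcripts, and 3 (15.8%) lower, against 8.56%. The 3 were CARS1 at -0.70, MARS1 at -0.67 and TARS1 at -0.59, which charge tRNA with cysteine, methionine and threonine. In midbodies over interphase the median of the 19 was -0.35. Past 1.5-fold, 3 (15.8%) were higher and 7 (36.8%) lower, against 25.1% and 34.2% of all transcripts. The higher ones were QARS1 at 0.88, FARSA at 0.87 and VARS1 at 0.66. Those past 2-fold lower (15.8%, against 20.8% of all transcripts) were WARS1 at -1.45, IARS1 at -1.38 and FARSB at -1.01. Reads were divided for FARSA, FARSB, MARS1 and WARS1. The FARSB row held 41.5% of its entry's reads, and its ratio interval of 0.378 to 0.586 spans the 2-fold line. The 7 mitochondrial translation factors had a midbody to mitotic median of -0.09, none past 1.5-fold in either direction, and -0.01 over interphase. There GFM1, the mitochondrial elongation factor G, was at -1.54 and MRRF, the ribosome recycling factor, at -0.81, while MTIF2, the mitochondrial initiation factor, was at 0.86. In mitosis over interphase MTIF2 was at 1.05 and GFM1 at -1.49.

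Of 26 regulators of translation compared, 3 (11.5%) were 1.5-fold or more higher in midbodies than in mitotic microtubules, against 7.11% of all transcripts. Lower by as much was 1 (3.85%), against 8.56%, and the median was -0.01. PDCD4, an inhibitor of eIF4A, had 19.6 RPKM in midbodies and 7.77 in mitotic microtubules, a log2 ratio of 1.23. DOHH, which completes hypusine on EIF5A, was at 0.66 and the ribosome rescue factor PELO at 0.64, while RPTOR, the scaffold of mTOR complex 1, was at -0.60. PDCD4, DOHH and PELO were each highest in interphase, at 37.6, 59.8 and 38.8 RPKM, and lowest in mitotic microtubules. In midbodies over interphase, 1 regulator (3.85%) was 2-fold or more higher, against 14.7% of all transcripts: EIF1B, the paralog of EIF1, at 1.11. Another 5 (19.2%) were 2-fold or more lower, close to the 20.8% of all transcripts. These were EIF4EBP2, the second EIF4E inhibitor, at -1.83, the eIF2 phosphatase subunit PPP1R15B at -1.66, RPTOR at -1.44 and the eIF2 kinases EIF2AK1 at -1.37 and EIF2AK3 at -1.26. EIF4EBP2 was at 102 RPKM in interphase, 18.9 in mitosis and 28.0 in midbodies, so this inhibitor, like EIF4EBP1, was highest in interphase. The kinase gene EIF2AK2 was listed at 0 in all 3 libraries.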

How the data were processed

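Qiagen RNeasy columns, Exiqon LNA dT selection and the Illumina TruSeq version 2 kit gave the poly-A libraries, per the labels' protocols. The deposited table gives estimated counts of reads per RefSeq transcript, fractional where reads were divided between transcripts, and the authors' RPKM, per the file headers. Dividing reads by RPKM gave whole-number transcript lengths, so RPKM was scaled to each column's sum. The authors paired transcripts with human proteins by BLASTX, per the file headers, and the highest E-value listed is 1e-20. Aligner, counter, build and filters: not given in the sources used here. Columns headed Metaphase stand for the sample titled Mitosis. The enrichment scores in the table were not used.

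Human symbols were assigned to UniProt entries by hand. RefSeq assembly CriGri-PICRH-1.0 named 2 members by accession. Of the members, 9 had several rows and 8 had fractional reads in the row used. Strand is not stated, so reads of antisense or near-identical copies may be mixed.

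Ratios were taken on log2(RPKM + 1), where either library reached 1 RPKM, a floor all 43 members passed. A call means 1.5-fold or 2-fold on this scale. Plain ratios of reads per library total, rounded to whole reads, carry exact (Clopper-Pearson) 95% binomial intervals. The code was tested on simulated data. With 1 library per group no test was run. Members, gene lists and naming rule were chosen with earlier results of these data known. Values are given for the 5 highest and 5 lowest members of each comparison, those past 2-fold, the 5 most abundant per library, and others that complete a complex. The rule for the other lists was genes past 2-fold in any comparison, at most 4 per list. Further genes named there, which make up a count of 5 or fewer, and members nearest to a line, were chosen after their values were seen.

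Alternatives were pseudocounts of 0.1 and 5, no floor and a floor of 10 RPKM, median of ratios scaling, TMM scaling (edgeR 4.0.16, 30% of ratios and 5% of abundances trimmed), CPM, summed rows per entry and members with whole reads only. The background at 10 RPKM, the split of eIF3 and levels with rows summed were added after seeing the data. Python 3.11.15, pandas 2.3.3 and scipy 1.17.1 were used.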

Additional observations from a re-analysis of the deposited data

How the results depend on the processing

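No paired analysis was possible because each group had 1 library, and no replicate could be left out. For 20 named members, 511 of 525 log2 ratios under the alternatives moved by no more than the mean reach of their counting interval to either side. The other 14 moved by more, and 0 reversed a call. By construction, 60 of the 525 with no floor, 60 with a floor of 10 RPKM and 45 with whole reads only could not move. Summing rows could move only members with several rows, and CPM acted only through the pseudocount. With members with divided reads left out, in midbodies over interphase the median became -0.22, with 4 members 1.5-fold and 0 members 2-fold higher. In mitosis over interphase the counts became 2 and 0, and the median of the eIF1, eIF1A, eIF5, eIF5B and eIF6 group became -0.69, since fewer members entered. Summing rows put that group's median in midbodies over interphase at 0.21. Median of ratios scaling left 3 members 2-fold lower in mitosis over interphase.

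The share of reads in interphase, mitosis and midbodies was 1.41%, 1.29% and 1.39% with rows summed, 1.18%, 1.11% and 1.21% without EEF1A1, and 1.27%, 1.17% and 1.23% as a share of summed RPKM. Summing rows turned the order of EIF4G1 and EIF4G2: it gave EIF4A2 34.1%, 45.2% and 45.0% of its pair, and EIF4G1 48.4%, 51.2% and 50.9%, EIF4G2 41.1%, 28.4% and 30.4%, and EIF4G3 10.6%, 20.4% and 18.7%. Depth limits midbody values most: EIF2B1 had 164 reads there, the lowest count of any member. The cause of these shifts was not tested beyond the construction of each alternative.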
